A study of Homo sapiens with 18 samples.

Results

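Solute carriers are the membrane proteins of the SLC gene families that move amino acids, sugars, ions, metals, vitamins and metabolites across the plasma membrane and the membranes of organelles. The members described here were the genes of the deposited table whose symbol follows the pattern SLC, number, A, number, and whose mean normalized count over the 18 libraries was at least 50. A normalized count is the number of reads of a gene divided by a size factor of its library. Of 55765 symbols in the table, 334 fitted the pattern and 186 passed the level, while 148 had a lower mean and 18 of these were at 0 in every library. The lowest members were SLC22A16 at a mean of 53.6, SLC26A1 at 61.9 and SLC27A2 at 62.2, and the highest symbols left out were SLC25A34 at 47.3, SLC8A2 at 44.0 and SLC6A19 at 37.5. The rule used the measured level over all 6 groups, so a gene that is high in 1 condition alone could enter through that condition. In all, 165 members had a mean of at least 50 in each of the 6 groups and 21 were below it in at least 1.

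The cells were G401, an established line from a malignant rhabdoid tumour, a childhood cancer defined by loss of SMARCB1, a core subunit of the SWI/SNF chromatin remodelling complex. The control line, labelled WT, had been edited with CRISPR/Cas9 at the AAVS1 safe harbour site, and E1 and F2 are 2 clones with both copies of RB1, the retinoblastoma tumour suppressor gene, disrupted. Each clone grew from 1 edited cell, so a difference between a clone and WT can belong to the clone and cannot be told apart from the edit. Cultures of each line were kept for 11 days in 10 µM tazemetostat, which blocks the histone methyltransferase EZH2, or in its solvent DMSO, with 3 biological replicates in each of the 6 groups.

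Most solute carriers work by alternating access: the protein opens to one side, binds its substrate, and reopens to the other side, either letting the substrate run down its gradient or coupling it to sodium, protons or a second substrate. EZH2 is the catalytic subunit of Polycomb repressive complex 2, which places the repressive mark H3K27me3, and tumours without SMARCB1 are known for their sensitivity to its inhibition. Carriers sit at several points of cell metabolism, among them amino acid uptake that feeds the mTORC1 pathway, glucose entry and the exchange of metabolites between cytosol and mitochondria.

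Libraries held between 25709489 and 39314860 recovered reads. In DMSO, RB1 averaged 2694 normalized counts for WT against 648 for E1 and 839 for F2, differences of -2.08 and -1.68 on the log2 scale (limma adjusted p = 5.7e-11 and 2.3e-09). SMARCB1 was at 0 in all 18 libraries, which is the state the line is known for. PTPRC and CD3E, markers of blood cells, averaged at most 1.28 in any group, EPCAM 3.35 to 16.4, CD68 8.25 to 17.8 and VWF 1.21 to 33.7. With tazemetostat VWF rose in all 3 lines (3.82, 2.14 and 3.50 on the log2 scale), EPCAM fell in E1 and F2 (-1.37 and -1.14) and CD68 rose in E1 (1.06), and their part in the results below was not tested. Replicates of E1 with DMSO spread most, with a median SD of 0.157 on the log2 scale over the members against 0.068 to 0.107 in the other 5 groups. The p-values measure the spread between these cultures of 1 line each. A group at 0 in all its libraries adds no spread to the p-values of a gene.

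Tazemetostat raised more solute carriers than it lowered in each line. A member was counted as risen or fallen when limma, fitted to log2(normalized count + 1) over all 16154 genes with a mean of at least 10, gave an adjusted p below 0.05 together with a log2 change of 1 or more in either direction. In WT 34 of 186 members rose (18.3%) and 10 fell (5.38%), where 14.5% of all genes tested rose and 6.77% fell. In E1 23 members rose (12.4%) and 4 fell (2.15%), beside 11.3% and 3.78% of all genes tested. In F2 25 rose (13.4%) and 6 fell (3.23%), beside 13.3% and 3.71%. Of the 12984 genes tested with a mean of at least 50, the members' own level, 12.3% rose and 5.69% fell in WT. At that level 8.86% rose and 3.07% fell in E1, and 10.5% and 3.13% in F2. The rule on the mean level admits genes through the group where they are high, and 14 of the 16 members below a mean of 50 in a compared WT group were among those called. Among the 170 members at 50 or more in both WT groups, 21 rose (12.4%) and 9 fell (5.29%), where 7.05% and 5.24% of all genes at that level did. The like shares that rose were 9 of 171 members (5.26%) against 3.38% of genes in E1, and 10 of 169 (5.92%) against 4.42% in F2. At this level the share of members that rose was the larger in each line, and the difference was not tested. Median log2 changes of the members in WT, E1 and F2 were 0.31, 0.10 and 0.19, and those of all genes tested 0.03, 0.02 and 0.02. When every library was scaled to the same total, the median of all genes in WT moved by -0.151 and 38 members were called, 63.2% of them as rises against 77.3% with the deposited scaling. In bulk RNA, fewer cells that express a gene and less of its RNA per cell cannot be told apart.

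**Figure D1:**
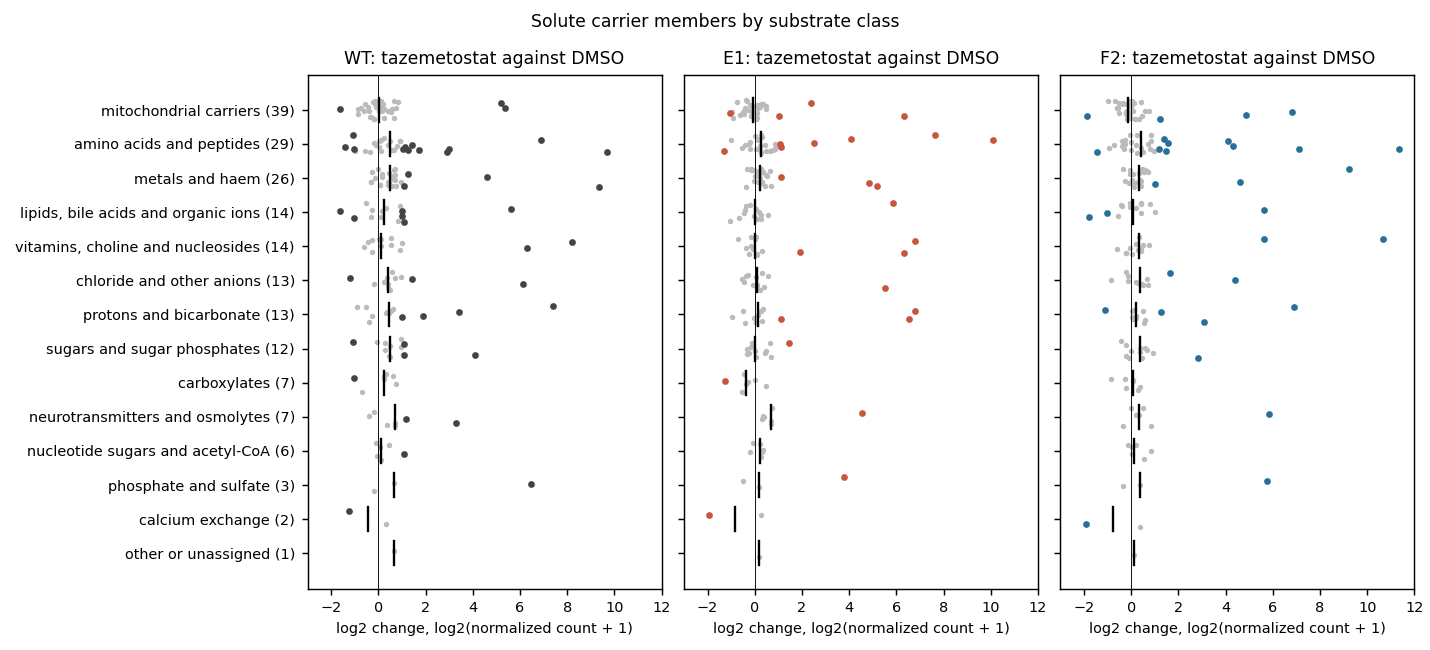
Log2 change with tazemetostat against DMSO for each of the 186 members, by substrate class (number of members in parentheses) and line; coloured points passed the threshold, grey points did not, and vertical bars are class medians. In WT the class medians run from -0.46 (calcium exchange, 2 members) to 0.71 (neurotransmitters and osmolytes, 7 members), and the largest rises, above 5 on the log2 scale, belong to a few members of several classes.

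The rises were spread over the substrate classes. With tazemetostat, 18 members (9.68%) rose in all 3 lines, where 9.78% of all genes tested did: SLC1A2, SLC1A3, SLC6A20, SLC7A5 and SLC7A8 among amino acid carriers, SLC4A4, SLC9A3 and SLC9A9 among proton and bicarbonate carriers, SLC30A8 and SLC39A8 among metal carriers, SLC25A27 and SLC25A48 among mitochondrial carriers, SLC44A1 and SLC52A3 among vitamin and choline carriers, and SLC12A8, SLC22A23, SLC34A2 and SLC6A12 in 4 further classes. SLC25A12 and SLC8A1 fell in all 3 (1.08%, beside 1.36% of all genes). In total 52 members (28%) passed the threshold in at least 1 line, 40 as rises and 12 as falls, beside 26.4% of all genes, and none rose in one line and fell in another, as 0.149% of all genes did. These shares of the members are close to those of all genes tested, which include genes below the members' level. Among the 165 members at 50 or more in each of the 6 groups, 4 rose in all 3 lines (2.42%, beside 1.97% of genes at that level), namely SLC44A1, SLC7A5, SLC7A8 and SLC9A3. The other 14 of the 18 were below 50 in at least 1 untreated line. Across the 186 members Pearson's r between the log2 changes was 0.906 for WT and E1, 0.957 for WT and F2 and 0.926 for E1 and F2, a description over genes that share their libraries and are not replicates. Members that entered the list through their treated level weigh on these values. Among the 165 members at 50 or more in every group the values were 0.807, 0.874 and 0.889. The other 129 members were not called in any of the 7 comparisons made.

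The summed level of the members was higher with tazemetostat in each line, and SLC44A1 and SLC7A8 were the largest single contributors. Differences between the sums were 64439, 28798 and 49148 for WT, E1 and F2. The sum was 333394 ± 8324 (SD, n = 3) normalized counts in WT with DMSO and 397833 ± 4998 with tazemetostat. The corresponding sums were 341723 ± 6574 and 370521 ± 3748 in E1, and 300683 ± 7202 and 349832 ± 5078 in F2. As a share of all reads the members held 1.01% to 1.02% in WT with DMSO and 1.08% to 1.10% with tazemetostat, 1.01% to 1.04% and 1.06% to 1.08% in E1, and 0.931% to 0.938% and 1.06% to 1.07% in F2, with no overlap between treatments in any line. SLC44A1, a choline transporter, added 10780 to the sum in WT, 11078 in E1 and 11143 in F2. SLC7A8, which carries neutral amino acids, added 6490, 9443 and 16651. SLC8A1, the sodium-calcium exchanger, and SLC25A5, an ADP/ATP carrier, had the largest negative contributions, -6712 and -6643 in WT.

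SLC44A1 and SLC7A8 have promoters of different CG content. Their 250 bases upstream of the RefSeq start (GRCh38.p14) are shown because CG content is known to mark promoters that Polycomb can occupy. Capitals mark each CG.
SLC44A1 (chr9:105244401-105244650, + strand): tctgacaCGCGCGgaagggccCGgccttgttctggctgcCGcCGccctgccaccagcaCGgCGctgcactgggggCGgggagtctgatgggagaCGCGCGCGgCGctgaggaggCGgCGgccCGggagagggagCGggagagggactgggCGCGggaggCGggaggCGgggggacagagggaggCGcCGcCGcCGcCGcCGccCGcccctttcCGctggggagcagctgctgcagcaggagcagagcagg
SLC7A8 (chr14:23155321-23155570, - strand): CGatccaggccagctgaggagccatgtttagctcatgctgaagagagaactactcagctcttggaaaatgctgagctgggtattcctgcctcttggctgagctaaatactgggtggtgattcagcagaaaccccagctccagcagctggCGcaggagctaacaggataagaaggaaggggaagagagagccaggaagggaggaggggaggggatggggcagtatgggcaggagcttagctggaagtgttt
The SLC44A1 window holds 30 CG, and 12.2% of the 27305 promoters hold as many or more. The SLC7A8 window holds 2, a number that 84.6% of promoters reach. A promoter was matched for 147 of the 186 members, with a median of 21 CG against 11.0 over all promoters. The 27305 promoters were not limited to genes at the members' level, so the sets are unlike. Promoters of other genes at that level were not compared. The 14 matched members that rose in all 3 lines had a median of 15 with quartiles of 2.2 and 29.2, so they hold CG-poor and CG-rich windows alike. The letters TGATGNAA, the consensus of the amino acid response element, were searched on both strands of the same windows and were found in 5 of 147 members (3.4%), 2 of them among the 14 that rose in all 3 lines, and in 3.19% of all promoters. Of those 2, SLC9A9 and SLC1A3, the window of SLC1A3 did not match the start of a GENCODE transcript and may not be the start used here. A match to these letters describes the window and is not a shown binding site.

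The class counts below stand beside the shares of all genes tested, 14.5% higher and 6.77% lower in WT, 11.3% and 3.78% in E1 and 13.3% and 3.71% in F2. Among genes with a mean of at least 50, 12.3%, 8.86% and 10.5% were higher in WT, E1 and F2. Amino acid carriers gave 9 rises (31%) and 3 falls (10.3%) among 29 members in WT, with 6 and 1 for E1 and 8 and 1 for F2. The glial glutamate transporters SLC1A3 (EAAT1) and SLC1A2 (EAAT2), had the largest rises. SLC1A3 had no read in any of the 9 DMSO libraries and stood at 800.2, 784 and 904 normalized counts in the 3 WT libraries with tazemetostat, 1029.5, 1015 and 1221 in E1, and 2688, 2393 and 2812 in F2. Against a floor of 3 reads per library it was at least 300.2-fold higher in WT, 384.4-fold in E1 and 803.4-fold in F2 (limma adjusted p = 2.7e-19, 1.6e-19 and 2.4e-20). The DMSO libraries, all at 0, add no spread to these p-values. SLC1A2 had at most 1 read in any DMSO library and reached 203, 172 and 181 in WT, 185, 209 and 197 in E1 and 109, 154 and 152 in F2. In E1 and F2, where DMSO libraries held no read, it was at least 69.56-fold and 42.22-fold higher.

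The large neutral amino acid transporters SLC7A5 (LAT1) and SLC7A8 (LAT2) need the heavy chain SLC3A2 (CD98) to reach the membrane, and all 3 were higher with tazemetostat. SLC7A8 stood at 1014, 974 and 1009.7 in WT with DMSO and at 7578, 8091 and 6798 with tazemetostat, a rise of 2.90 ± 0.11 (SE) on the log2 scale (limma adjusted p = 5.7e-14). It went from 700.1, 493 and 618 to 10496, 9441 and 10202 in E1 and from 869, 993 and 754 to 18736, 17826 and 16006 in F2. These are rises of 4.07 and 4.33, and no treated library overlapped an untreated one. For SLC7A5 the rises in WT, E1 and F2 were 1.27 ± 0.12, 1.11 and 1.56, from means of 3192, 3365 and 2787 to 7659.6, 7127 and 8225. Without the third E1 library with DMSO, which was the lowest at 2477, the E1 change of SLC7A5 was 0.90, under the limit. SLC3A2 rose by 1.40 ± 0.07 in F2 (limma adjusted p = 5.7e-12) and was 0.90 and 0.84 higher in WT and E1, past the p-value but under the limit of 1. Per kilobase of exon, SLC7A5 averaged 1136 over the 18 libraries, SLC7A8 1044 and SLC3A2 814, all on the normalized count scale.

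Several further amino acid carriers were read from the fixed list. SLC1A5 (ASCT2), a glutamine exchanger, averaged 4147 ± 232 (SD, n = 3) in WT with DMSO and 4204 ± 124 with tazemetostat, and its libraries overlapped. SLC38A1 and SLC38A2, sodium-coupled glutamine transporters, stood at 0.03 and -0.18 in WT, 0.22 and 0.22 in E1, and -0.06 and -0.38 in F2 on the log2 scale of the treatment difference. SLC7A1, the arginine and lysine transporter CAT1, was at 3827 ± 152 in treated WT against 3572 ± 173, and at 7085 ± 93.5 against 4173 ± 452 in E1 and 6328 ± 116 against 3563 ± 147 in F2. These differences of 0.10, 0.77 and 0.83 on the log2 scale are under the limit of 1. SLC7A11, the cystine-glutamate exchanger xCT, was 0.48, 0.48 and 0.71 higher. Its antisense gene SLC7A11-AS1 averaged 0 in WT with DMSO and 52.5 with tazemetostat, 0 and 34.96 in E1 and 0.346 and 18.4 in F2, and without the strand setting reads of this pair cannot be told apart. SLC16A10, which carries aromatic amino acids, fell by 1.41 in WT (648, 631 and 652 to 264, 240.4 and 220.4) and by 1.46 in F2, and was at -0.99 in E1. SLC43A1 (LAT3) fell by 1.01 in WT and 1.28 in E1 and was at -0.93 in F2, and SLC38A5 fell by 1.08 in WT and was at -0.53 and -0.41 in the clones. The fall of SLC43A1 in WT was -0.96 and -0.98 without the second DMSO or the second tazemetostat library.

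**Figure D2:**
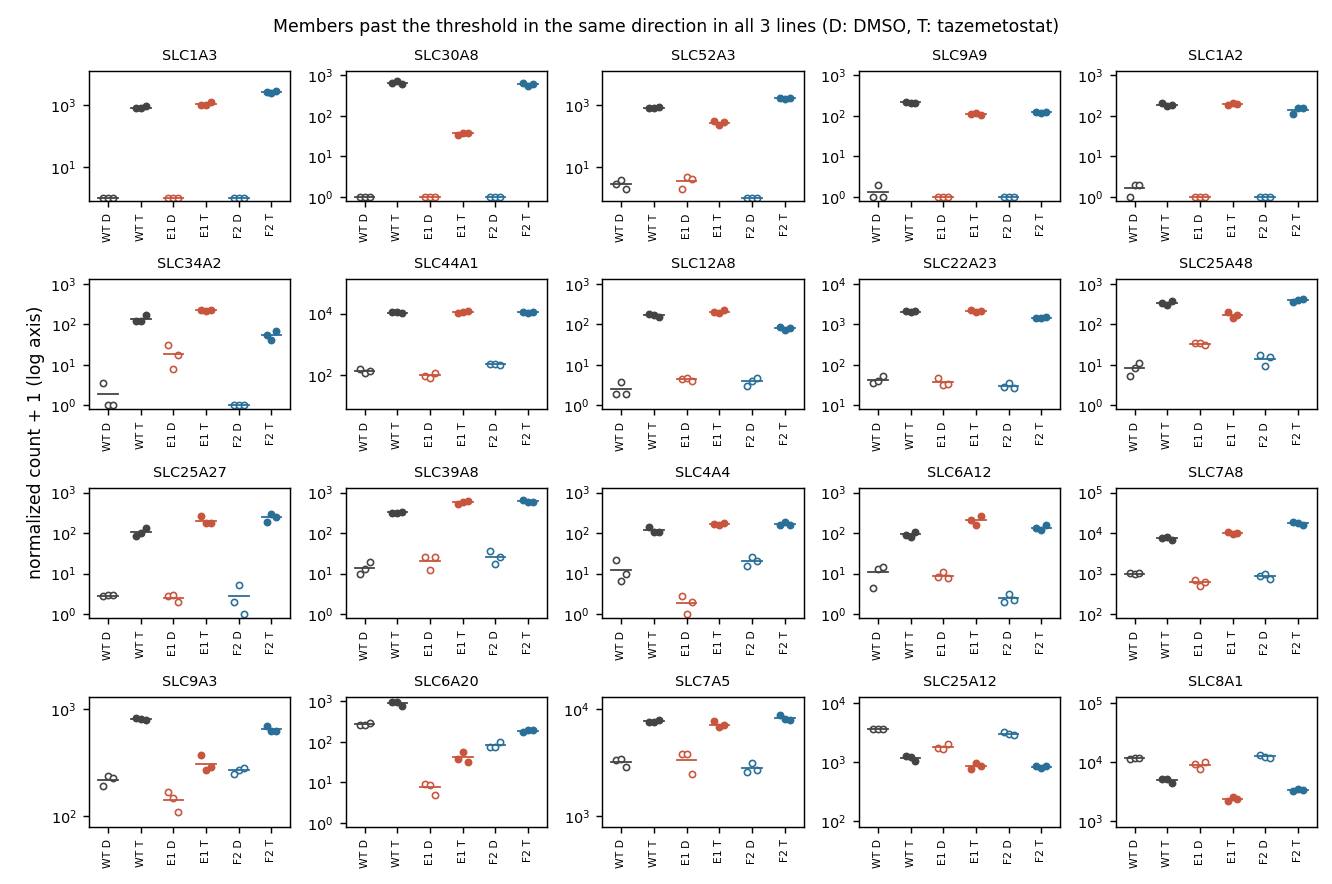
Normalized count + 1 (log axis) of the 20 members that passed the threshold in the same direction in all 3 lines; open circles are DMSO (D) and filled circles tazemetostat (T) libraries, with a line at the mean of 3. SLC1A3 and SLC30A8 are at 0 in all DMSO libraries, while SLC44A1, SLC7A8, SLC9A3, SLC7A5, SLC25A12 and SLC8A1 average at least 50 in every group.

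SLC6A20 and SLC6A17, members of the sodium- and chloride-coupled SLC6 family that carry proline and related or neutral amino acids, differed between the lines before treatment. SLC6A20 (SIT1) stood at 259, 254 and 293 in WT with DMSO, at 8.04, 7.72 and 3.90 in E1 and at 73.8, 74.7 and 94.6 in F2, and the groups did not overlap. Its rises with tazemetostat in WT, E1 and F2 were 1.74 ± 0.22, 2.50 and 1.18. Treated E1 libraries, at 37.3, 56.1 and 31.1, remained below untreated WT. The untreated libraries of SLC6A17, a synaptic vesicle carrier, stood at 115, 105 and 98.4 for WT, at 619.7, 589.8 and 465 for E1 and at 22.5, 29.05 and 23.1 for F2. With tazemetostat it reached 876, 775 and 873 in WT, 1068, 1059 and 1039 in E1 and 409.7, 475 and 459 in F2, so the lines were closer to each other after treatment than before. Its rise was 2.98 in WT and 4.12 in F2, and in E1 it was 0.93, under the limit (limma adjusted p = 2.8e-06).

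Vitamin, choline and nucleoside carriers gave 2 rises (14.3%) among 14 members in WT, 3 in E1 and 2 in F2, with no fall. SLC44A1 (CTL1), a plasma membrane and mitochondrial choline transporter, went from 159, 115 and 138 normalized counts to 11310.1, 10977 and 10464 in WT, from 98.2, 83.0 and 121 to 10218, 11493 and 11824 in E1, and from 230.5, 237 and 222 to 11413, 10929.6 and 11776 in F2. These are folds of 79.5, 111 and 49.5 (limma adjusted p = 2.1e-18, 1.0e-18 and 7.0e-18), and the treated levels of the 3 lines overlapped. SLC52A3 (RFVT3), a riboflavin transporter, averaged 1.84 in WT and 2.56 in E1 with DMSO and had no read in F2, and reached 802 ± 40.5, 268 ± 40.3 and 1629.6 ± 96.3 with tazemetostat (SD, n = 3 each). The 3 treated lines did not overlap. SLC52A2 (RFVT2), another riboflavin transporter of this family, was 0.98, 0.30 and 0.77 higher in WT, E1 and F2 and was not called. SLC19A2, a thiamine transporter, rose in E1 alone by the threshold, from 186, 191 and 198 to 697, 746 and 721 (1.91 ± 0.08, limma adjusted p = 8.7e-14), with 0.55 in WT and 0.28 in F2. SLC19A1, the reduced folate carrier, and SLC29A1, the equilibrative nucleoside transporter ENT1, lay between -0.28 and 0.05 on the log2 scale in the 3 lines.

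Metal and haem carriers gave 4 rises (15.4%) among 26 members in WT, 3 in E1 and 3 in F2, with no fall. SLC30A8 (ZnT8), known for loading zinc into insulin granules, had no read in any DMSO library. With tazemetostat it stood at 637, 726 and 592 in WT and 629, 557 and 605 in F2, but at 33.0, 36.8 and 36.7 in E1. It was at least 235.9-fold higher in WT, 182.3-fold in F2 and 12.53-fold in E1. SLC39A8 (ZIP8), which imports zinc, manganese and other divalent metals, rose from means of 12.99, 20.02 and 25.2 to 322 ± 14.2, 572 ± 50.8 and 613 ± 36.5 in WT, E1 and F2, folds of 24.8, 28.6 and 24.3 (limma adjusted p = 3.8e-11, 2.1e-11 and 3.8e-11). The zinc exporter SLC30A1 was 0.58, 0.69 and 0.73 higher, the iron importer SLC11A2 (DMT1) was at -0.25, -0.05 and -0.25, and SLC39A14 (ZIP14) at 0.14, 0.23 and 0.12. The iron exporter SLC40A1 (ferroportin) had a mean of 36.0 and is not a member.

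Proton and bicarbonate carriers gave 4 rises (30.8%) among 13 members in WT and 3 in each clone, with 1 fall, in F2. SLC9A9 (NHE9), an endosomal sodium-proton exchanger, had 1 read in 1 of the 9 DMSO libraries and reached 223, 211 and 203 in WT, 112, 113 and 105 in E1 and 123, 116 and 120.2 in F2. It was at least 38.78-fold higher in E1 and 36.6-fold in F2. SLC9A3 (NHE3), the absorptive exchanger of gut and kidney epithelium, rose by 1.89 ± 0.14 in WT, from 189, 238 and 224 to 818, 804 and 784, by 1.13 in E1 and by 1.27 in F2. Without the first treated E1 library, the highest at 368, the E1 change was 0.99, and without the third E1 library with DMSO it was 0.95. SLC4A4 (NBCe1), a sodium bicarbonate cotransporter, had untreated levels of 20.1, 5.65 and 8.52 in WT, 1.79, 0 and 0.974 in E1, and 14.3, 24.9 and 19.4 in F2, and rose to means of 119, 163 and 169.7. SLC9A5 fell in F2 by 1.12 and was at -0.92 and -0.95 in WT and E1. SLC4A7, a sodium bicarbonate cotransporter, was at -0.26, 0.15 and 0.06 with tazemetostat, and its untreated levels in the 3 lines were 5375 ± 191, 8319 ± 1165 and 2789 ± 233 (SD, n = 3 each).

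Sugar carriers gave 3 rises (25%) and 1 fall among 12 members in WT, and 1 rise each in E1 and F2. SLC2A3 (GLUT3), the high-affinity glucose transporter of neurons, stood at 122, 101 and 85.2 in WT with DMSO and at 1815, 1642 and 1858 with tazemetostat, a 17.2-fold rise (limma adjusted p = 8.0e-13). In F2 it went from 54.3, 29.05 and 57.0 to 328, 301 and 363, a 7.06-fold rise, and in E1 from 176, 174 and 206 to 250.2, 262 and 244, a log2 change of 0.45 that was not called (adjusted p = 0.061). Its near-identical copy SLC2A14 reached at most 2.46 in any library. SLC2A1 (GLUT1), the basal glucose transporter, rose by 1.10 ± 0.10 in WT, from 2432 ± 119 to 5199 ± 111, and was 0.65 and 0.57 higher in E1 and F2. With same-total scaling the WT change of SLC2A1 was 0.95. An antisense gene, SLC2A1-AS1, averaged 145 over the libraries, and because the strand setting of the counting is not given in the sources used here, reads of the pair cannot be told apart. SLC2A13, a proton-myo-inositol transporter, rose in E1 by 1.44 and was 0.95 and 0.94 higher in WT and F2. SLC5A3, a sodium-myo-inositol transporter, was at 11466 ± 700.1 in WT with DMSO and was 0.50, 0.05 and 0.39 higher. SLC37A4, the glucose-6-phosphate carrier of the endoplasmic reticulum, fell in WT by 1.06, from 1094, 1055 and 1094 to 535, 495 and 521, and was at -0.34 in E1 and -0.44 in F2.

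Of 39 mitochondrial carriers, the largest class, 36 were not called in WT and 35 in each clone, and the class median change was 0.03, -0.06 and -0.14 on the log2 scale. SLC25A27 (UCP4), an uncoupling protein of brain, averaged 1.84, 1.56 and 1.72 with DMSO and 106 ± 27.2, 203 ± 46.5 and 249.5 ± 56.5 with tazemetostat in WT, E1 and F2. SLC25A48, an inner membrane carrier linked to choline, rose 45.1-fold in WT (4.37, 7.54 and 10.4 to 338, 295 and 373), 30.04-fold in F2 and 5.40-fold in E1. SLC25A12 (aralar), the aspartate-glutamate carrier of the malate-aspartate shuttle, fell in WT from 3704, 3615 and 3647 to 1261, 1222 and 1059, by 1.63 ± 0.09 on the log2 scale, and fell by 1.07 in E1 and 1.87 in F2 (limma adjusted p = 7.9e-12, 5.4e-09 and 1.1e-12). Without the first treated E1 library or the third E1 library with DMSO, its E1 change was -0.99. Of the ADP/ATP carriers, SLC25A5 (ANT2), which had the highest level per kilobase of all members with a mean of 9028, was 0.73, 0.45 and 0.56 lower in WT, E1 and F2, under the limit, and SLC25A4 (ANT1) was 0.40, 0.09 and 0.04 higher. The phosphate carrier SLC25A3 was at -0.13, -0.04 and -0.21. SLC25A6, whose gene lies in the region shared by the X and Y chromosomes, is listed at no more than 1.21 in any library and is not a member.

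Calcium, phosphate and anion carriers included single members with large changes. SLC8A1 (NCX1), the plasma membrane sodium-calcium exchanger, fell from 11456, 11872 and 11581 to 5244, 5072 and 4458 in WT, from 9397, 7741 and 10072 to 2153, 2509.7 and 2402 in E1, and from 13279, 12445 and 11866 to 3202, 3496 and 3419.7 in F2. The log2 changes were -1.24 ± 0.09, -1.94 and -1.89 (limma adjusted p = 3.9e-10, 6.3e-13 and 7.9e-13), and no treated library overlapped an untreated one. Its antisense gene SLC8A1-AS1 averaged 2.11. SLC34A2 (NaPi-IIb), an epithelial sodium-phosphate cotransporter, had untreated levels of 2.62, 0 and 0 in WT, 29.5, 6.76 and 16.6 in E1 and 0 in all 3 F2 libraries, and reached 137 ± 25.6, 222 ± 5.70 and 53.8 ± 13.6 with tazemetostat. In F2 it was at least 16.42-fold higher. The widespread phosphate importers stayed under the limit, SLC20A1 (PiT1) at -0.17, -0.52 and -0.34, and SLC20A2 (PiT2) at 0.67, 0.16 and 0.38. SLC12A8, of the cation-chloride cotransporter family, rose in all lines, from means of 1.55, 3.45 and 2.93 to 165 ± 13.8, 202 ± 17.0 and 80.8 ± 7.48. SLC5A5 (NIS), the iodide transporter of thyroid, rose by 1.44 in WT (107, 110.3 and 104 to 301, 275 and 303) and 1.63 in F2, while E1 libraries overlapped at 64.3, 73.4 and 56.5 against 76.7, 64.8 and 63.1. SLC26A10 fell in WT by 1.19, and was -0.97 without the third WT library with DMSO. The sodium-potassium-chloride cotransporter SLC12A2 (NKCC1) was 0.60, 0.58 and 0.67 higher and the potassium-chloride cotransporter SLC12A7 0.48, 0.10 and 0.50.

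Carriers of organic ions and lipids gave 4 rises (28.6%) and 2 falls (14.3%) among 14 members in WT, 1 rise in E1, and 1 rise and 2 falls in F2. SLC22A23, an orphan of the organic ion family, rose from 35.8, 38.6 and 51.1 to 2106, 1969 and 2166 in WT, and by similar folds of 49.7, 58.2 and 50.0 in WT, E1 and F2. SLC47A1 (MATE1), which exports organic cations, fell from 423, 421 and 339.7 to 122, 137 and 117 in WT (-1.64 ± 0.10), by 1.02 in F2, and was at -0.67 in E1. SLC10A7 fell in WT by 1.02 and was at -0.20 and -0.56 in E1 and F2. SLC22A18 and the fatty acid transporter SLC27A4 (FATP4) rose in WT by 1.09 and 1.01, calls that same-total scaling ended at 0.94 and 0.85. Among neurotransmitter and osmolyte carriers, SLC6A12 (BGT1), the betaine-GABA transporter, rose in all lines, from means of 9.66, 7.87 and 1.44 to 91.6 ± 12.6, 209 ± 57.5 and 136 ± 20.6. SLC17A7 (VGLUT1), which loads glutamate into synaptic vesicles, rose in WT from 1469 ± 31.6 to 3340.5 ± 41.3 (1.18 ± 0.07, limma adjusted p = 6.0e-11) and was 0.39 and 0.52 higher in E1 and F2. The taurine transporter SLC6A6 and the creatine transporter SLC6A8 were 0.38 and 0.71 higher in WT, 0.67 and 0.29 in E1, and at 0.22 and -0.02 in F2.

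Among 7 carboxylate carriers 1 fell in WT (14.3%), and among 6 carriers of nucleotide sugars and acetyl-CoA 1 rose (16.7%). SLC16A14, an orphan of the monocarboxylate family, fell by 1.03 in WT (568, 623 and 485 to 260.2, 282 and 271) and 1.25 in E1, and was at -0.22 in F2. Without the second WT library with DMSO, its WT change was -0.95. The lactate transporters SLC16A1 (MCT1) and SLC16A3 (MCT4) were at 0.25 and 0.24 in WT, -0.28 and -0.45 in E1 and 0.10 and 0.29 in F2, and neither was called. SLC35A2, which brings UDP-galactose into the Golgi, rose in WT by 1.07 ± 0.08, from 678 ± 29.3 to 1427 ± 11.9, was 0.34 and 0.83 higher in E1 and F2, and was at 0.92 in WT with same-total scaling. SLC35A1, which carries CMP-sialic acid, was at -0.07, -0.09 and -0.14, and the acetyl-CoA transporter SLC33A1 at 0.45, 0.25 and 0.02.

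The RB1 knockout clones were compared with the control in DMSO, where the members' counts lay near the background. In E1 4 members (2.15%) were higher and 4 (2.15%) lower than in WT, beside 2.35% and 2.69% of all genes tested. In F2 none was higher and 6 (3.23%) were lower, beside 0.885% and 2.09%. Of these calls, 6 of the 8 in E1 and 5 of the 6 in F2 had a compared group below a mean of 50. Among the 169 members at 50 or more in both groups for E1, 1 was higher and 1 lower (0.592% each). Of genes at that level 1.07% and 0.727% were. For F2 0 of 168 such members were higher and 1 was lower (0.595%), beside 0.399% and 0.615% of genes. By the adjusted p alone, without the limit on size, 63 members differed in E1 and 61 in F2. Against the count of 0 higher members in F2 by limma, edgeR and DESeq2 also called 0, 12 members were higher by the adjusted p alone and 23 at an unadjusted p under 0.05. The comparisons share the 3 WT libraries with DMSO. In E1 SLC34A2 (3.39), SLC6A17 (2.38), SLC25A48 (2.03) and SLC27A2 (1.09), a very long chain fatty acid transporter, were higher, and SLC6A20 (-5.21), SLC4A4 (-2.64), SLC17A9 (-1.14), a vesicular nucleotide carrier, and SLC25A12 (-1.01) were lower on the log2 scale. In F2 SLC6A17 (-2.06), SLC6A12 (-1.98), SLC22A16 (-1.93), a carnitine transporter, SLC6A20 (-1.72), SLC52A3 (-1.45) and SLC2A3 (-1.16) were lower. SLC6A17 was higher in E1 and lower in F2, and SLC6A20 was 41.0-fold lower in E1 (limma adjusted p = 3.4e-12) and 3.32-fold lower in F2 (2.0e-05). SLC25A12 stood at 1755, 1686 and 2023 in E1 against 3704, 3615 and 3647 in WT, at -0.27 in F2. Its call in E1 was lost at -0.96 to -0.999 without the first WT, the first E1 or the second E1 library, and at -0.98 with TMM scaling. SLC27A2 in E1 was at 0.96 without the third E1 library and SLC2A3 in F2 at -0.86 without the second F2 library. SLC22A16 in F2 rested on 18.4, 9.34 and 10.9 against 48.9, 55.6 and 45.4, and lost its call without the second WT, the second F2 or the third F2 library, at -1.85, -1.74 and -1.84. SLC52A3 in F2 compares no read with 1.75, 2.83 and 0.946, and its call was lost with DESeq2 at -3.20 and with a pseudocount of 5 at -0.44. SLC2A3 and SLC6A12 in F2 also lost their calls when only the groups compared were fitted.

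**Figure D3:**
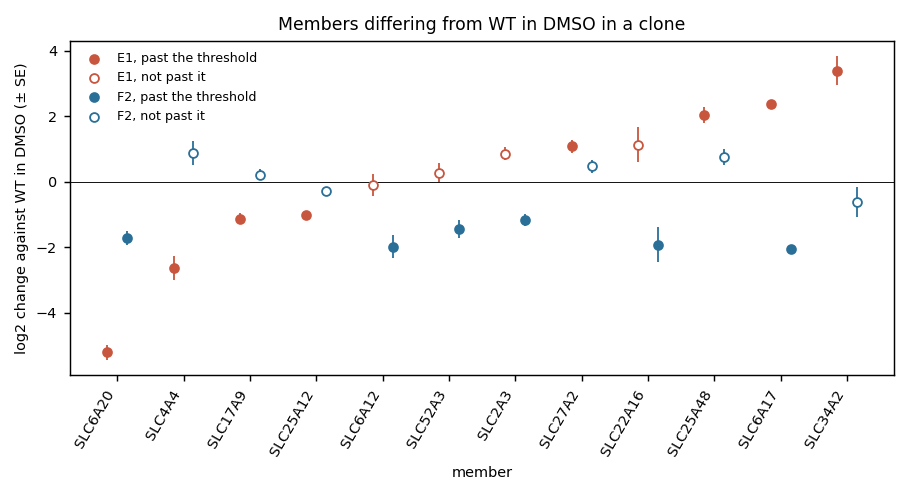
Log2 difference from WT in DMSO (± SE, limma) of the 12 members that passed the threshold in E1 (red) or F2 (blue); filled points passed it and open points did not. SLC6A20 is below 0 in both clones and SLC6A17 is at 2.38 in E1 and -2.06 in F2.

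The response to tazemetostat in each clone was compared with that of WT by the difference of the log2 changes. For E1 the response of 4 members was higher and of 12 lower than that of WT, beside 4.79% and 5.21% of all genes tested. For F2 it was higher for 6 and lower for 4, beside 4.82% and 2.66%. Among genes with a mean of at least 50 the shares were 4.15% and 4.27% for E1 and 4.21% and 2.12% for F2. Both comparisons share the 6 WT libraries. With same-total scaling 41.2% of the E1 calls were higher, against 25% with the deposited scaling, and the median of the members in F2 went from -0.08 to 0.04. The 34 members that rose in WT had a median change of 2.40 there, 1.12 in E1 and 2.24 in F2, and 19 (55.9%) and 22 (64.7%) of them rose in E1 and F2, where 69.9% and 79.9% of all genes risen in WT did. These members were chosen on the WT values, and the rule on the mean level also used the clone values, so neither is free of the choice. Among the 165 members at 50 or more in each of the 6 groups, 18 rose in WT. Of those, 5 (27.8%) also rose in E1 and 6 (33.3%) in F2, where 36.1% and 52.6% of genes at that level did.

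In E1 12 of the 16 differences were negative. SLC30A8 differed by -4.16 ± 0.25 (limma adjusted p = 1.3e-09), SLC2A3 by -3.66 ± 0.27 (1.1e-08), SLC25A48 by -3.00 ± 0.35 (3.4e-06) and SLC34A2 by -2.68 ± 0.63 (0.0030). For SLC30A8, at 0 in DMSO in both lines, the difference is that of the treated levels, and edgeR did not call it. SLC25A48 and SLC34A2, and SLC6A17 at -2.05, were also higher in untreated E1 than in untreated WT. SLC52A3 (-1.86), SLC5A5 (-1.37), SLC43A2 (-1.27), SLC2A6 (-1.25), SLC16A6 (-1.14), SLC29A3 (-1.06) and SLC10A3 (-1.03) followed. SLC43A2 (LAT4) stood at 1286, 1188 and 1221 in WT with DMSO and 3422, 3201 and 3263 with tazemetostat, and in E1 at 1444, 1435 and 1062 and at 1598, 1345 and 1402. Positive differences in E1 were those of SLC4A4 (3.11 ± 0.51, limma adjusted p = 0.00013), SLC19A2 (1.36), SLC7A8 (1.17) and SLC6A16 (1.07). SLC4A4 was also lower in untreated E1 than in untreated WT, at 2, 0 and 1 reads in the E1 libraries. SLC19A2, at means of 192 against 308, and SLC7A8 were lower in untreated E1 as well, without passing the threshold. Several differences in response lie near the limit: without the second E1 library with DMSO, SLC2A6 was at -0.98, SLC29A3 at -0.95 and SLC10A3 at -0.87. SLC29A3 was also at -0.93 without the first treated E1 library, and SLC10A3 at -0.95 and -0.96 without the first E1 library with DMSO or the second treated one. SLC6A16 was at 0.75 without the third WT library with DMSO, its highest at 170.3 against 81.2 and 95.2, and also lost its call, at a like size of 0.88, 1.001, 0.95 and 1.05, without the second treated WT, the second E1 with DMSO, and the first or the third treated E1 library.

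**Figure D4:**
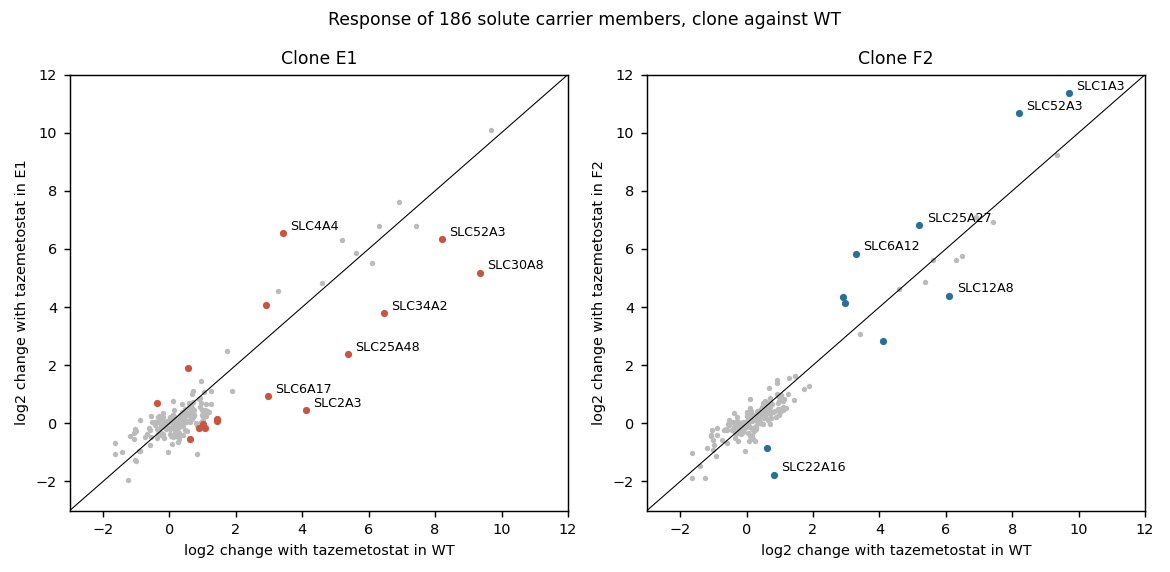
Log2 change with tazemetostat in E1 (left) and F2 (right) against that in WT for the 186 members; coloured points are members whose response differed past the threshold, the line marks equal responses, and the largest differences are named. In E1 SLC30A8 and SLC2A3 lie farthest below the line and SLC4A4 farthest above it.

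In F2 the response was stronger for SLC6A12 (2.54 ± 0.48, limma adjusted p = 0.00068), SLC52A3 (2.47 ± 0.40, 0.00013), SLC1A3 (1.66 ± 0.21, 8.9e-06), SLC25A27 (1.61), SLC7A8 (1.43) and SLC6A17 (1.15). The difference was negative for SLC22A16 (-2.61), SLC12A8 (-1.71), SLC16A6 (-1.45) and SLC2A3 (-1.26). SLC12A8 and SLC2A3 rose in WT and F2, by less in F2. SLC22A16 averaged 50.0 in untreated and 89.5 in treated WT, and 12.9 and 5.00 in F2. SLC6A12, SLC52A3 and SLC6A17 were also lower in untreated F2 than in untreated WT. For SLC52A3 untreated F2 held no read, against at most 3 per library in untreated WT. For SLC1A3, at 0 in DMSO in both lines, the difference is that of the treated levels. Neither edgeR nor DESeq2 called SLC1A3, SLC12A8 or SLC25A27 here, and SLC25A27 was also lost under 12 other alternatives, with values from 1.05 without the third F2 library with DMSO to 1.85. SLC22A16 in treated F2 rested on 3.88, 11.1 and 0, and its fall there was lost at -0.80 without the third treated library and at -1.51 without the first F2 library with DMSO. SLC16A6, a carrier of the monocarboxylate family, was higher with tazemetostat in WT, at 354, 386 and 309 against 232, 241 and 210.1, and lower in both clones, from 283, 268 and 305 to 200.2, 186 and 207 in E1 and from 293, 254 and 206 to 162, 130.2 and 127 in F2. None of these changes within a line reached the limit of 1 (0.61, -0.53 and -0.84), while the differences from WT did. SLC7A8 responded more in each clone than in WT, by 1.17 and 1.43, and SLC2A3 less, by -3.66 and -1.26.

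**Figure D5:**
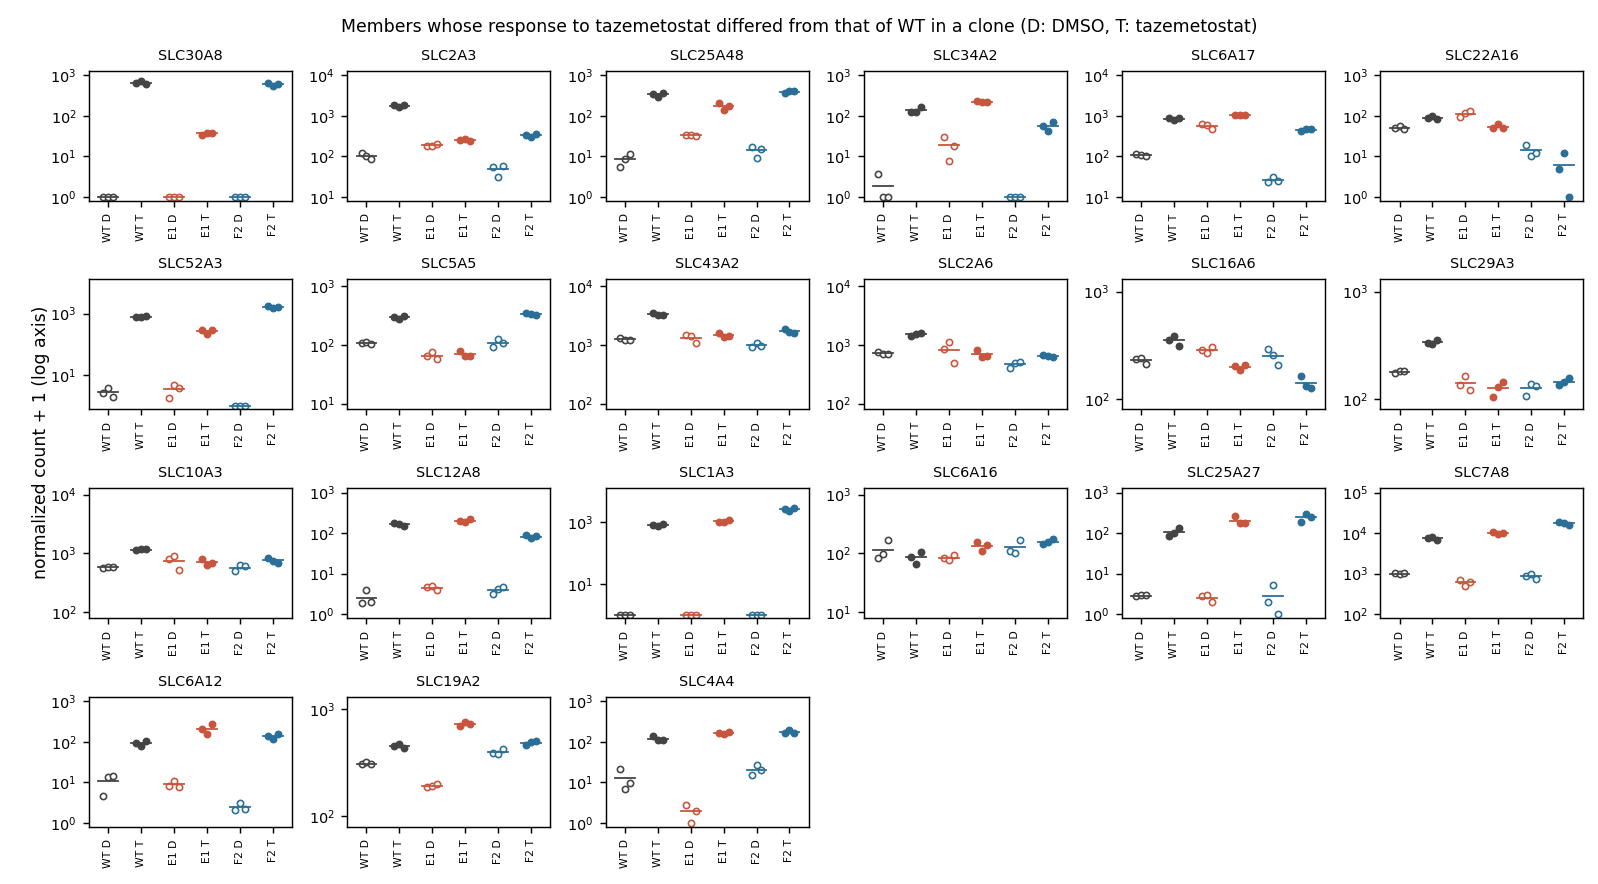
Normalized count + 1 (log axis) of the 21 members whose response differed from that of WT in E1 or F2; open circles are DMSO (D) and filled circles tazemetostat (T) libraries, with a line at the mean of 3. Treated E1 is far below treated WT and F2 for SLC30A8 and lowest of the treated lines for SLC2A3, and SLC16A6 is higher with tazemetostat in WT and lower in both clones.

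Carriers outside the symbol pattern and partner proteins were read from a list of 43 symbols, 30 of which were tested. Of these, 9 rose and 1 fell in WT, 8 rose and 2 fell in E1, and 8 rose and 2 fell in F2, with the background shares given above. SLCO3A1, an organic anion transporter, went from means of 2.38, 2.84 and 2.88 to 569, 844 and 856, and ANKH, known for the release of pyrophosphate and ATP, from 2.16, 3.13 and 6.21 to 248, 941 and 932. SLC18B1, a vesicular polyamine transporter, fell in all 3 lines, by 1.38, 1.33 and 1.60. MPC1, a subunit of the mitochondrial pyruvate carrier, was 0.25 higher in WT and fell by 1.21 in E1 and 1.48 in F2, differences in response of -1.46 and -1.73 (limma adjusted p = 1.1e-07 and 2.6e-08).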

How the data were processed

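RNA of 18 G401 cultures was isolated with a column kit, poly(A)-selected and sequenced as paired reads from a stranded library, per the labels' protocols. Trim Galore 0.4.4, STAR 2.6.0a, HTSeq, DESeq2 and the build hg19 are named in the submitters' processing notes, and the annotation and strand setting are not given in the sources used here. The authors deposited 1 table of normalized counts, a signal in which each value is a whole read count divided by a size factor of its library. Whole reads were recovered for 100.0% of values in each of the 18 columns, and the deposited values were the input of the main test. Groups and replicate numbers came from the sample titles.

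Genes with a mean of at least 10 (16154) were fitted with limma 3.58.1 (R 4.3.3, trend) on log2(value + 1), with 6 group means and Benjamini-Hochberg adjustment within each of 7 comparisons. A call needed an adjusted p below 0.05 together with a log2 change of 1 or more in either direction. Fold changes of low genes are understated on this scale, and those of genes with no read in a group were given against a floor of 3 reads per library, which covers counting error only. Alternatives were edgeR 4.0.16 and DESeq2 1.42.0 on the recovered reads, other pseudocounts, filters, scalings and memberships, a replicate block and each library left out. Shared counts and r over the members at 50 or more in every group were added after the data were seen. In simulated data with 200 of 16154 genes changed by 2 on the log2 scale, 100% were called in the treatment comparison of WT and 99.5% in the response comparison of E1, with 1.96% and 0.5% of calls false. The changed genes were drawn from those with a mean of at least 50 and changed in treated WT alone. The simulation therefore does not cover genes near 0 in DMSO or changes near the limit of 1. Same-numbered replicates had positively correlated deviations in every pair for F2 against WT in DMSO (0.108 to 0.375 over 3 pairs). The same held for tazemetostat against DMSO in WT (0.05 to 0.315 over 3 pairs). Each of the other comparisons held pairs with negative values.

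The members, the classes and the gene lists were chosen with earlier results of these data known. Named genes were a list of textbook transporters, up to 2 members with the largest rise and fall per class and comparison, and those at the level limit. SLC9A3 was named after its values were seen. Exon lengths came from GENCODE 29 and promoters from RefSeq (GRCh38.p14), used with no coordinates of the counting build. Results for a few listed genes are not reported here.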

Additional observations from a re-analysis of the deposited data

Results flagged for a closer look

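The response to tazemetostat differed between a clone and WT, by a test of the difference itself, for 16 members in E1 and 10 in F2 (limma, adjusted p under 0.05 and a difference of at least 1 on the log2 scale). In E1 the differences were -4.16 for SLC30A8, -3.66 for SLC2A3, -3.00 for SLC25A48, -2.68 for SLC34A2, -2.05 for SLC6A17, -1.86 for SLC52A3, -1.37 for SLC5A5, -1.27 for SLC43A2, -1.25 for SLC2A6, -1.14 for SLC16A6, -1.06 for SLC29A3 and -1.03 for SLC10A3, and 1.07 for SLC6A16, 1.17 for SLC7A8, 1.36 for SLC19A2 and 3.11 for SLC4A4. In F2 they were -2.61 for SLC22A16, -1.71 for SLC12A8, -1.45 for SLC16A6 and -1.26 for SLC2A3, and 1.15 for SLC6A17, 1.43 for SLC7A8, 1.61 for SLC25A27, 1.66 for SLC1A3, 2.47 for SLC52A3 and 2.54 for SLC6A12. Both sets are measured against the same WT libraries, and each clone is 1 line. Groups of 3 libraries were not tested for libraries that stand apart.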

How the results depend on the processing

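Of 142 calls of single members in the 7 comparisons, 104 held under every alternative they were run with and 38 were lost under at least 1, and no direction changed. Leaving out libraries in turn gave 42 to 47 members called in WT, 23 to 29 in E1 and 29 to 33 in F2 with tazemetostat, 7 to 9 in E1 and 6 to 8 in F2 against WT in DMSO, and 13 to 23 in E1 and 9 to 11 in F2 for the difference in response. Without the limit on size, 136, 115 and 121 members passed with tazemetostat in WT, E1 and F2, 63 and 61 in E1 and F2 in DMSO, and 87 and 65 for the difference in response. With members at a mean of at least 100, 4 were called in E1 in DMSO and 6 in F2 for the difference in response. With the replicate block the counts were 44, 27, 31, 8, 6, 17 and 10 in the order above, against 44, 27, 31, 8, 6, 16 and 10 without it, and each of the 142 calls was kept. Same-total scaling ended 14 calls, edgeR 7, DESeq2 4, TMM scaling 3 and fits of only the compared groups 4. SLC12A8 and SLC1A3 for the F2 response and SLC30A8 for the E1 response kept their size with edgeR (-1.90, 1.68 and -4.19) and lost the adjusted p, and the cause was not tested. Members with 3 or fewer reads per DMSO library limit any fold at this depth.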
